A study of Mus musculus with 6 samples.

Results

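The platelet-derived growth factor (PDGF) genes, 4 encoding ligands (Pdgfa, Pdgfb, Pdgfc and Pdgfd) and 2 encoding receptors (Pdgfra and Pdgfrb), were followed in cultured mouse dermal fibroblasts with and without stabilized β-catenin. All 6 genes were taken by symbol from a table of 41126 genes. RNA-seq was performed on 6 libraries, 3 control and 3 Gain of Function (GOF), each from a primary culture of ventral dermal fibroblasts of postnatal day 4 mice of mixed CD1, C57Bl6 strain. GOF cultures carried Ctnnb1 Δex3/+, an allele that makes β-catenin without its degradation signal once Cre removes exon 3, and are labelled AdCre for the adenovirus that delivered Cre. Control cultures are labelled AdGFP and +/+, although the study describes the same transgene in its controls and the treatment protocol in the labels names adCre for every culture. By the source and genotype labels the virus differed between the groups along with β-catenin, and their parts in any difference cannot be told apart. The cultures came from 4 animals. Animal 9852 gave Control 0 and GOF 2, animal 9845 gave Control 2 and GOF 0, and animals 9844 and 9843 gave Control 1 and GOF 1. Within animals 9852 and 9845 the labels thus give +/+ and Δex3/+ to cultures that share an inherited genotype. P-values over these libraries measure the spread between cultures, of which 2 pairs share an animal.

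PDGF ligands are secreted dimers that bind 2 receptor tyrosine kinases at the cell surface, PDGFRα and PDGFRβ, and bring receptor chains together so that they phosphorylate each other. PDGF-A and PDGF-C act mainly through PDGFRα, PDGF-B through both receptors, and PDGF-D mainly through PDGFRβ. In skin, PDGFRα is a general marker of dermal fibroblasts and their precursors, PDGFRβ is also carried by pericytes and smooth muscle cells, and PDGF is known as a mitogen for fibroblasts in wound repair and fibrosis.

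The libraries held 35980831 to 42834467 fragments. Ctnnb1, counted over the whole gene, lay at 254 to 285 FPKM (fragments scaled for transcript length and library depth) in controls and at 246 to 297 FPKM in GOF cultures. Axin2, a target of β-catenin signalling, lay at 0.136 to 0.177 FPKM in controls and at 14.4 to 19.2 FPKM in GOF cultures, so no library went against its label. The fibroblast markers were detected in every library, with Thy1 at 222 FPKM or more. Fap was lower, at 6.7 to 13.5 FPKM, and Lum was at 11.3 FPKM in GOF 2. Of the markers that define other skin cells, Krt14 (basal keratinocytes) was listed at 0 in 5 libraries and at 0.0235 FPKM in GOF 2, and Cdh5 (endothelium) was at 0.179 to 0.378 FPKM. The summed FPKM of 7 keratinocyte markers was 0.469 to 0.587 in control and 2.94 to 6.77 in GOF cultures, where almost all of it was Dsp, a desmosome gene, and the other 6 stayed under 1 FPKM in every library. That of 5 skeletal muscle markers was 22.7 to 26.7 and 137 to 171, of which all but Acta1 stayed under 1 FPKM, and that of 8 endothelial markers was 8.46 to 9.98 and 9.21 to 10.0. Of 7 endothelial markers tested, Esam was called higher (from 0.0975 to 0.916 FPKM) and Tek lower (from 1.94 to 0.425 FPKM). These were 28.6% of those tested, against 12.3% of all genes tested, by the criteria given below. Adipocyte markers summed to 7.18 to 8.91 and 1.80 to 3.27 FPKM, nearly all Fabp4, and those of Schwann cells or melanocytes to 1.24 to 4.63 and 1.22 to 4.09 FPKM.

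The upstream sequences of the ligand genes that rose and of Pdgfra are shown because β-catenin acts on DNA through TCF/LEF proteins, which bind a CTTTG core. They are RefSeq windows on GRCm38.p6 (mm10), written 5′ to 3′ on the gene's strand, with CTTTG on either strand in capitals. The window of Pdgfc, chr3:81036166-81036415 on the plus strand, ends at the base before the annotated gene, and that of Pdgfra, chr5:75152001-75152250 on the plus strand, lies before the annotated first exon. The stretch of Pdgfa, chr5:138995038-138995194 on the minus strand, lies directly before the start of one annotated transcript and within an intron of longer ones.
Pdgfa: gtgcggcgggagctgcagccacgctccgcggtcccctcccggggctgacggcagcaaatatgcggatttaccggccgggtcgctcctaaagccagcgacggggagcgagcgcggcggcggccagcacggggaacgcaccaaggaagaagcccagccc
Pdgfc: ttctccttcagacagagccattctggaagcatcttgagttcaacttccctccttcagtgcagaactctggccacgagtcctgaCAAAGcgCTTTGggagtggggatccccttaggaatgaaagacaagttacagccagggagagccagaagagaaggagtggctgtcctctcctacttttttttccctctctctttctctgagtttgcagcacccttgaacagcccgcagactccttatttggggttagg
Pdgfra: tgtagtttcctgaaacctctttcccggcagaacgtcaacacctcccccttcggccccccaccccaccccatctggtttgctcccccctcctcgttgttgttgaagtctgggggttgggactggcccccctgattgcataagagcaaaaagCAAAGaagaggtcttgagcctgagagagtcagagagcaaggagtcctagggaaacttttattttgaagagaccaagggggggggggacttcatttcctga
Windows were held for 4 of the 6 genes. In the 250 bases before the start, CTTTG was found at 2 places for Pdgfc, at 1 for Pdgfra, at 1 for Pdgfd and at none in either window of Pdgfa. It is present in 48.6% of all 32851 windows, so a match is common. None of these windows held CTTTG followed by AA, AT, TA or TT on either strand, forms that 14.8% of all windows hold. The windows of Pdgfa were richer in G and C than most, at 66.4% and 72.4%, against a median of 52.4% over all windows. They held GGGCGG, the core of a GC box, at 1 and 2 places, none of them in the stretch printed above. GGGCGG is present in 32.7% of all windows, so such a match is common too.

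Among the ligands, Pdgfa and Pdgfc, the pair that act mainly through PDGFRα, rose in GOF cultures, whereas Pdgfd did not pass the test and Pdgfb was barely detected. Neither receptor was called without regard to the animal, and the levels of both overlapped between the groups. A gene was called when edgeR's quasi-likelihood test gave a Benjamini-Hochberg adjusted p under 0.05 and the fold change exceeded 2. After the filter on low counts 5 of the 6 genes were tested, and 2 were called higher and 0 lower. With the animal as a block 2 were called higher and 1 lower, Pdgfra. Over all 15462 genes tested, 6.69% were called higher, 5.64% lower and 12.3% in either direction. At an unadjusted p under 0.05, 2 of the 5 were lower in GOF cultures, Pdgfd and Pdgfrb, and DESeq2 called the same number of members, 2 higher and 0 lower. The RNA came from whole cultures, in which fewer cells of a type and less RNA per cell cannot be told apart.

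**Figure D1:**
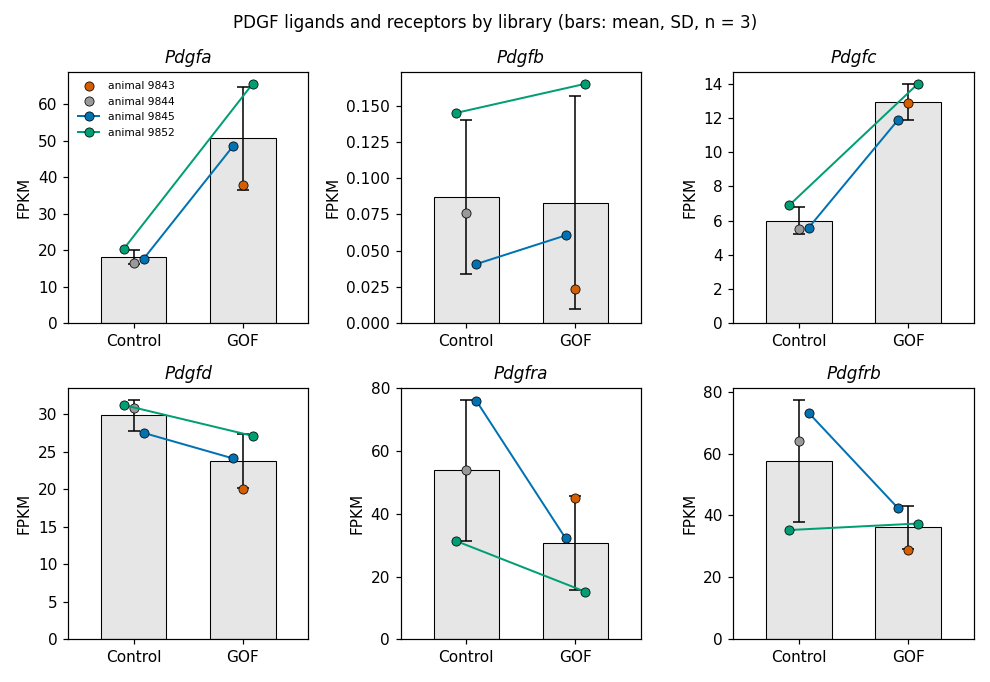
FPKM of each PDGF gene in the 3 Control and 3 GOF libraries, with a separate linear axis for each gene. Bars give the mean and whiskers the SD (n = 3), points are libraries coloured by animal, and lines join the cultures of animals 9845 and 9852. Every GOF library lies above every control for Pdgfa and Pdgfc, and the receptor points of the groups overlap.

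Pdgfa encodes the A chain and lies on chr5:138976014-138997370 on the minus strand. It was at 20.4, 16.5 and 17.6 FPKM in Controls 0 to 2 and at 48.5, 37.8 and 65.6 FPKM in GOF 0 to 2, from 1340 to 1527 fragments per control and 2740 to 5207 per GOF library. The groups did not overlap, and the lowest GOF culture lay well above the highest control. The mean rose from 18.2 ± 2.01 to 50.6 ± 14.0 FPKM (SD, n = 3 each), 2.79-fold. The log2 fold change was 1.38 ± 0.23 (SE; edgeR adjusted p = 0.00595). Within an animal, Pdgfa was 2.75-fold higher in the GOF culture of animal 9845 and 3.22-fold higher in that of animal 9852. A noncoding gene on the opposite strand, 6330403L08Rik, overlaps Pdgfa and had at most 394 fragments in a library. Its mean was 0.831 ± 0.0216 FPKM in control and 1.5 ± 0.363 FPKM in GOF cultures (SD, n = 3 each, log2 fold change 0.82, edgeR adjusted p = 0.0354, under the fold threshold). The sources used here do not state whether strand was used in counting, so reads of this pair may not have been kept apart.

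Pdgfc encodes a ligand that is secreted in a latent form and cut outside the cell before it binds, and lies on chr3:81036416-81214040 on the plus strand. Its FPKM was 6.89, 5.51 and 5.59 in the controls and 11.9, 12.9 and 14.0 in the GOF cultures, from 760 to 827 and 1673 to 1826 fragments. The 3 GOF cultures lay close together and all above the controls. The mean rose 2.16-fold, from 5.99 ± 0.778 to 12.9 ± 1.04 FPKM (SD, n = 3 each). The log2 fold change was 1.09 ± 0.14 (SE; edgeR adjusted p = 0.00222), just over the fold threshold. Within animals 9845 and 9852 the GOF culture was 2.14-fold and 2.03-fold above its control. On log2(FPKM + 1), a scale that understates changes of low genes, limma gave a log2 fold change of 1, which did not exceed the fold threshold.

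Pdgfd, whose product is likewise secreted latent and binds PDGFRβ, lies on chr9:6168584-6378850 on the plus strand. It was at 31.2, 30.8 and 27.5 FPKM in the controls and at 24.1, 20.0 and 27.1 FPKM in the GOF cultures. GOF 2 and Control 2 nearly met, but no GOF value reached a control value. The means were 29.8 ± 2.01 and 23.7 ± 3.58 FPKM (SD, n = 3 each), giving a log2 fold change of -0.35 ± 0.11 (SE; edgeR adjusted p = 0.058, unadjusted p = 0.0133) that did not pass the threshold. The GOF culture was at 87.7% of its control in animal 9845 and at 87% in animal 9852. Pdgfd is one of 3 tested PDGF genes whose groups did not overlap, with Pdgfa and Pdgfc, and 39.5% of all genes tested show none, 20.3% higher and 19.2% lower in GOF cultures. For each of these 3 the exact permutation test gave a two-sided p = 0.1, which is the lowest value that 3 libraries against 3 can yield.

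Pdgfb encodes the B chain, which is known mainly from endothelium and platelets, and lies on chr15:79995874-80014977 on the minus strand. It had 13, 8 and 4 fragments in the controls and 6, 2 and 18 in the GOF cultures, or 0.0233 to 0.165 FPKM. In both groups the culture from animal 9852 was the highest. Its group means were 0.0874 ± 0.0533 and 0.083 ± 0.0734 FPKM (SD, n = 3 each; exact permutation test, two-sided p = 1), and a difference was not detectable at this depth. It did not pass the filter on low counts. Fitted without that filter, its log2 fold change was -0.04 (edgeR adjusted p = 0.992).

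Pdgfra encodes PDGFRα, the receptor of all but the D form, and lies on chr5:75152292-75198215 on the plus strand. Its FPKM was 31.3, 54.1 and 76.1 in Controls 0 to 2 and 32.2, 45.1 and 15.2 in GOF 0 to 2, from 9470 to 26408 and 5102 to 15674 fragments. The groups overlapped, since Control 0 lay below GOF 0 and GOF 1. The means were 53.9 ± 22.4 and 30.8 ± 15.0 FPKM (SD, n = 3 each), giving a log2 fold change of -0.79 ± 0.45 (SE; edgeR adjusted p = 0.252; exact permutation test on FPKM, two-sided p = 0.3). The lowest control and the lowest GOF culture came from the same animal, 9852. Within that animal Pdgfra was 2.06-fold lower in the GOF culture, and within animal 9845, which had the highest control, it was 2.36-fold lower. With the animal as a block its log2 fold change was -1.18 ± 0.15 (SE; edgeR adjusted p = 0.0024) and Pdgfra was called lower. That fit had 1 residual degree of freedom per gene and rests on 2 animals. It called 13% of all genes, 7.09% higher and 5.9% lower, and 4.08% of the genes tested were lower by over 2-fold in both animals on log2(FPKM + 0.1). With the animal as a random effect in limma-voom the log2 fold change was -0.98 (adjusted p = 0.0496). Without a block, the value was -0.45 when GOF 2 was left out and -0.48 when Control 2 was left out.

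Other fibroblast markers were uneven across the same libraries. Lum, a collagen-binding proteoglycan, was at 109, 153 and 173 FPKM in the controls and at 62.4, 134 and 11.3 FPKM in the GOF cultures. GOF 2 was the lowest and GOF 1 the highest GOF value, as for Pdgfra, and also for Dcn and Pdpn. The others differed, with Vim highest in GOF 2 and Col1a1, Col1a2, Thy1 and Fap highest in GOF 0. Dcn, of the same proteoglycan family as Lum, fell (log2 fold change -1.67, edgeR adjusted p = 0.00584). Col1a2 fell too (-1.18, edgeR adjusted p = 0.0375), but was at -0.88 with the animal as a block, under the fold threshold. Lum was at -0.99 without that block (edgeR adjusted p = 0.383). With it, Lum was at -2.42 and Dcn at -2.05 (edgeR adjusted p = 0.00916 and 0.000737). Both were called lower in that fit, and 0 of the 8 fibroblast markers were called higher. Vim and Fap were at 0.70 and 0.75 (edgeR adjusted p = 0.028 and 0.0303, under the fold threshold), and Col1a1 averaged 166 FPKM in both groups. The summed FPKM of the 8 fibroblast markers was 3030 to 3770 in control and 2530 to 3030 in GOF cultures, and 2 of the 8 were called lower and 0 higher by edgeR and by DESeq2 (2 higher at an unadjusted p under 0.05). By edgeR that is 25% of those tested, against 12.3% of all genes tested. The part of these marker changes in the values of Pdgfra was not tested.

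Pdgfrb encodes PDGFRβ and lies on chr18:61045150-61085061 on the plus strand. It was at 35.3, 64.1 and 73.1 FPKM in the controls and at 42.3, 28.8 and 37.4 FPKM in the GOF cultures. Control 0 again lay among the GOF values, and the groups overlapped. The means were 57.5 ± 19.8 and 36.2 ± 6.85 FPKM (SD, n = 3 each), giving a log2 fold change of -0.70 ± 0.28 (SE; edgeR adjusted p = 0.117, unadjusted p = 0.0373). The animals that gave both cultures differed in direction here, with the GOF culture at 57.8% of its control in animal 9845 and at 106% in animal 9852. With the animal as a block the log2 fold change was -0.34 (edgeR adjusted p = 0.311). Leaving out Control 0 brought the adjusted p under 0.05, with a value of -0.97 (edgeR adjusted p = 0.0127) that was still under the fold threshold.

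**Figure D2:**
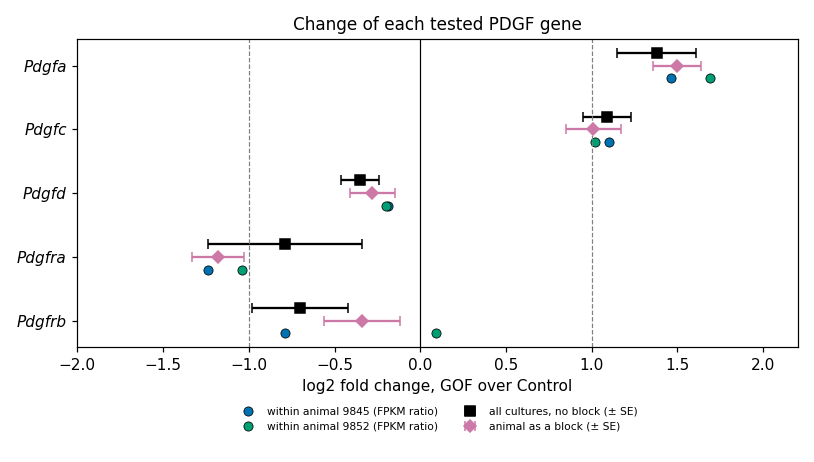
Log2 fold change, GOF over Control, of the 5 tested PDGF genes from edgeR without a block (squares) and with the animal as a block (diamonds), each ± SE, beside the FPKM ratio within animals 9845 and 9852 (circles). Dashed lines mark a 2-fold change. Pdgfa and Pdgfc lie to the right in every estimate, Pdgfra moves from -0.79 to -1.18 with the block, and the circles of Pdgfrb fall on either side of 0.

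Pericytes and smooth muscle cells also carry PDGFRβ. Of 10 of their markers tested, 1 was called higher (Cnn1, a contractile protein, log2 fold change 1.25, edgeR adjusted p = 0.00824) and 0 lower, with 0 lower at an unadjusted p under 0.05 and 0 lower by DESeq2. That is 10% of those tested, near the 12.3% of all genes tested. With the animal as a block 3 of the 10 were called higher (Cnn1, Notch3 and Myh11) and 0 lower. That fit called 7.09% of all genes tested higher and 5.9% lower. The pericyte markers Rgs5 and Kcnj8 were at 1.31 to 3.22 and 1.31 to 3.49 FPKM over all libraries. Without a block Rgs5, Kcnj8, Abcc9, Cspg4 and Mcam lay below 0 on the log2 scale, at -0.53, -0.73, -0.78, -0.35 and -0.37. Their adjusted p ran from 0.173 to 0.413 (edgeR). Notch3, Myh11, Acta2 and Des lay above 0, at 0.80, 0.90, 0.39 and 0.31, beside Cnn1. Kcnj8, Abcc9 and Cspg4 were, like Pdgfrb, lowest among controls in Control 0. The part of such cells in the values of Pdgfrb was not tested. Others of the list were more abundant, with Mcam at 13 to 30.5 FPKM and Myh11 at 6.95 to 25.3 FPKM. The summed FPKM of the list was 1670 to 2340 in control and 2010 to 3660 in GOF cultures, most of it Acta2, which cultured fibroblasts also make.

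Because FPKM is scaled per transcript length, the 6 genes can be set in order within a library. In each control the receptors were highest, followed by Pdgfd, Pdgfa, Pdgfc and Pdgfb. Pdgfra and Pdgfrb were neighbours that overlapped over the controls, whereas Pdgfd, Pdgfa, Pdgfc and Pdgfb were separated by more than their spread. In GOF cultures Pdgfa was first in GOF 0 and GOF 2 and second in GOF 1, above Pdgfd in all 3 libraries. Pdgfa overlapped both receptors there and Pdgfd overlapped Pdgfra, while Pdgfc and then Pdgfb stayed last in every library of either group.

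The summed FPKM of the ligands was 58.6, 52.9 and 50.8 in the controls and 84.6, 70.7 and 107 in the GOF cultures. That of the receptors was 66.6, 118 and 149 in the controls and 74.5, 73.9 and 52.6 in the GOF cultures. The ligand sums did not overlap, whereas the receptor sum of Control 0 lay among those of the GOF cultures. Pdgfd made up 53.2% to 58.2% of the ligand sum in controls and 25.4% to 28.5% in GOF cultures. Pdgfa took 31.2% to 34.8% in controls and 53.5% to 61.4% in GOF cultures, so that the leading ligand transcript changed from Pdgfd to Pdgfa in the GOF libraries. Pdgfc took 10.4% to 11.8% and 13.1% to 18.2%.

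**Figure D3:**
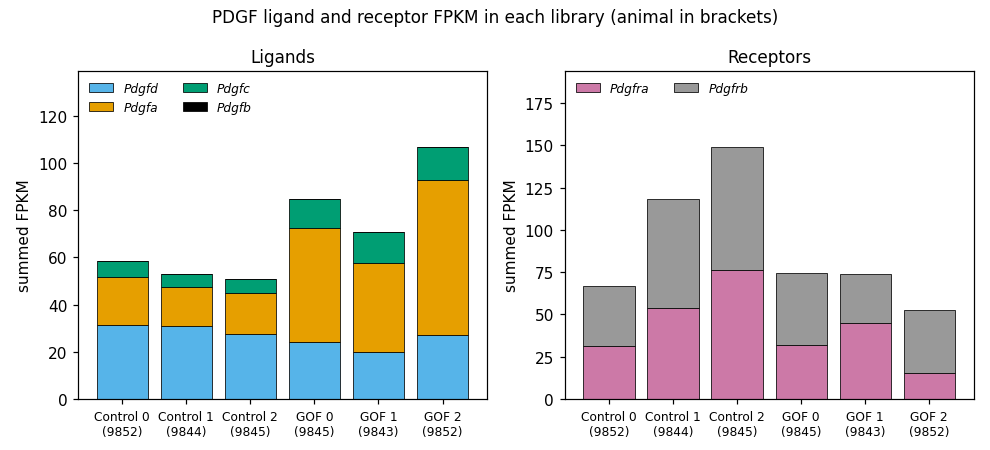
Stacked FPKM of the 4 ligand genes (left) and the 2 receptor genes (right) in each library, with the animal in brackets and a linear axis from 0. Pdgfa is the largest ligand segment in the 3 GOF libraries and Pdgfd in the 3 controls, where the receptor sum runs from 66.6 to 149 FPKM.

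Ratios within a library were tested for 2 pairs. Pdgfra over Pdgfrb was 0.889, 0.845 and 1.04 in the controls and 0.762, 1.57 and 0.406 in the GOF cultures. The controls were close to 1, and the GOF cultures spread to both sides. On the log2 scale the means were -0.12 ± 0.16 and -0.35 ± 0.98 (SD, n = 3 each), a difference of -0.23 (exact permutation test, two-sided p = 0.7, also 0.7 adjusted over both ratios). Without GOF 2 the difference was 0.25. Within an animal it was -0.45 in animal 9845 and -1.13 in animal 9852. Pdgfa over Pdgfc was 2.96, 3 and 3.16 in the controls and 4.06, 2.94 and 4.68 in the GOF cultures. The log2 means were 1.6 ± 0.05 and 1.93 ± 0.34 (SD, n = 3 each; difference 0.33, exact permutation test, two-sided p = 0.4, adjusted 0.7), and this difference did not pass the test.

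Genes whose products process PDGF or bind it or its receptors outside the cell were listed together with the receptor-like gene Pdgfrl. Of this list the one called was Pdgfrl. It encodes a secreted protein that resembles the receptor's extracellular part without a kinase. Pdgfrl was at 34.8, 37.6 and 39.0 FPKM in the controls and at 13.6, 12.0 and 17.0 FPKM in the GOF cultures, with no overlap. The mean fell from 37.1 ± 2.13 to 14.2 ± 2.57 FPKM (SD, n = 3 each; log2 fold change -1.42 ± 0.15 SE, edgeR adjusted p = 0.00115). Of 10 genes listed 9 were tested, and 1 was called lower and 0 higher (1 higher at an unadjusted p under 0.05, and 0 called higher by DESeq2). That is 11.1% of those tested, near the 12.3% of all genes tested. Plg, the gene of plasminogen, was listed at 0 in every library. Plau, the urokinase that can activate PDGF-D, was at 0.85 on the log2 scale (edgeR adjusted p = 0.00703), under the fold threshold. Pcsk5, a proprotein convertase, was at -0.96 (adjusted p = 0.031) and was called lower as well when Control 0 or GOF 1 was left out. The median log2 fold change of the list was 0.13, against -0.02 over all genes tested.

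Of 35 genes whose products carry the signal from activated receptors, 1 was called higher and 1 lower, or 5.71% in all, against 12.3% of all genes tested. Their median log2 fold change was -0.02. Pik3cb, a catalytic subunit of PI3K, rose from 1.40 ± 0.23 to 3.84 ± 0.939 FPKM (SD, n = 3 each; log2 fold change 1.46, edgeR adjusted p = 0.00261). At any fold, 6 of the 35 had an adjusted p under 0.05, against 21.2% of all genes tested. Of these, Ptpn11 and Src, a phosphatase and a kinase that bind the receptors, were at 0.66 and 0.59 on the log2 scale, and Plcg1 (phospholipase Cγ) and Mapk3 (ERK1) at -0.72 and -0.53 (adjusted p at most 0.0239, edgeR).

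Among 21 negative regulators of receptor tyrosine kinases, 3 were called higher and 0 lower, 14.3% in all, near the 12.3% of all genes tested. At an unadjusted p under 0.05, 1 was lower, and DESeq2 called 3 higher and 0 lower. The median log2 fold change was 0.22. Dusp4, a phosphatase that switches off ERK, rose from 11.9 ± 1.20 to 32.9 ± 8.28 FPKM (SD, n = 3 each; log2 fold change 1.44, edgeR adjusted p = 0.00456). Dusp5, of the same family, rose by 1.01 on the log2 scale (adjusted p = 0.0123), just over the fold threshold. Ptprk, a receptor-type tyrosine phosphatase, rose from 5.28 ± 1.59 to 14.1 ± 0.753 FPKM (log2 fold change 1.41, edgeR adjusted p = 0.00469). The ubiquitin ligase gene Cbl was at 0.45 on the log2 scale (adjusted p = 0.0495), and the feedback inhibitors Spry1, Spry2 and Spry4 were at -0.29, -0.37 and 0.89 (adjusted p = 0.198, 0.256 and 0.0806, edgeR).

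Genes known to be switched on when resting fibroblasts receive a growth factor changed in both directions. Of 29 tested, 9 were called higher and 6 lower, 51.7% in all against the 12.3% of all genes, with a median log2 fold change of 0.20. Those called higher were Ptgs2, Plaur, Fosl1, Has2, Ccnd1, Atf3, Nr4a1, Hbegf and Ier3. Those called lower were Fos, Egr1, Egr2 and Ier2, which are among the first genes to respond, and the chemokine genes Ccl2 and Cxcl1. With the animal as a block 8 were called higher and 7 lower, where 7.09% and 5.9% of all genes were. Nr4a1 was then under the fold threshold (0.90, edgeR adjusted p = 0.0471), and Ccl7 was called lower (-1.11, edgeR adjusted p = 0.013). Ptgs2, which encodes the prostaglandin synthase COX-2, rose from 28.6 ± 6.68 to 298 ± 36.4 FPKM (SD, n = 3 each; log2 fold change 3.40, edgeR adjusted p = 0.000276). Plaur, the urokinase receptor, rose by 1.85 and Fosl1, an AP-1 subunit, by 1.88 on the log2 scale (adjusted p = 0.00122 and 0.00181, edgeR). Egr1 was at 6.82 to 8.93 FPKM in controls and 1.58 to 2.80 FPKM in GOF cultures, a log2 fold change of -1.75 (edgeR adjusted p = 0.00331). Ccl2 was highest in Control 0, at 214 FPKM against 78.7 and 55.9 FPKM in the other controls, and its log2 fold change was -1.63 (edgeR adjusted p = 0.048).

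The receptors most like PDGFRα and PDGFRβ, the class III receptor tyrosine kinases and the VEGF receptors, were read with their ligands. Of 15 listed 13 were tested, and 5 were called higher and 2 lower, 53.8% in all against 12.3% of all genes tested. Without GOF 0, 4 were called higher and 0 lower, and with the animal as a block 4 higher and 1 lower. Over all genes, 1311 of 15799 tested were called without GOF 0. With the block 7.09% were called higher and 5.9% lower. The median log2 fold change of the list was 0.50 with all libraries and no block. Pgf, a ligand of the VEGF receptor Flt1, rose from 0.892 ± 0.149 to 10.4 ± 4.06 FPKM (SD, n = 3 each; log2 fold change 3.50, edgeR adjusted p = 0.000684). Csf1r, the colony-stimulating factor receptor that lies next to Pdgfrb on chromosome 18, rose from 1.32 ± 0.234 to 3.89 ± 0.787 FPKM (log2 fold change 1.52, edgeR adjusted p = 0.00186). Flt4, a VEGF receptor, rose from 0.195 ± 0.0502 to 1.48 ± 0.594 FPKM (log2 fold change 2.89, edgeR adjusted p = 0.00223). Kdr and Flt3 were also called higher, and Flt1 and the ligand gene Vegfd (listed under its older symbol, Figf) lower, with log2 fold changes of 1.77, 1.13, -1.38 and -1.54. Flt3 and Flt1 were not called with the animal as a block (0.79 and -0.80, edgeR adjusted p = 0.112 and 0.0736). Csf1r was the 1 of 6 tested macrophage markers that was called, or 16.7% against 12.3% of all genes tested. The summed FPKM of the macrophage list was 13.3 to 22.7 in control and 10.3 to 28.7 in GOF cultures. Its largest part was Lyz2, at 4.22 to 17.3 FPKM over all libraries, while Adgre1, Ptprc and Fcgr1 stayed at 0.12 FPKM or less in every library. The part of macrophages in the values of Csf1r was not tested.

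**Figure D4:**
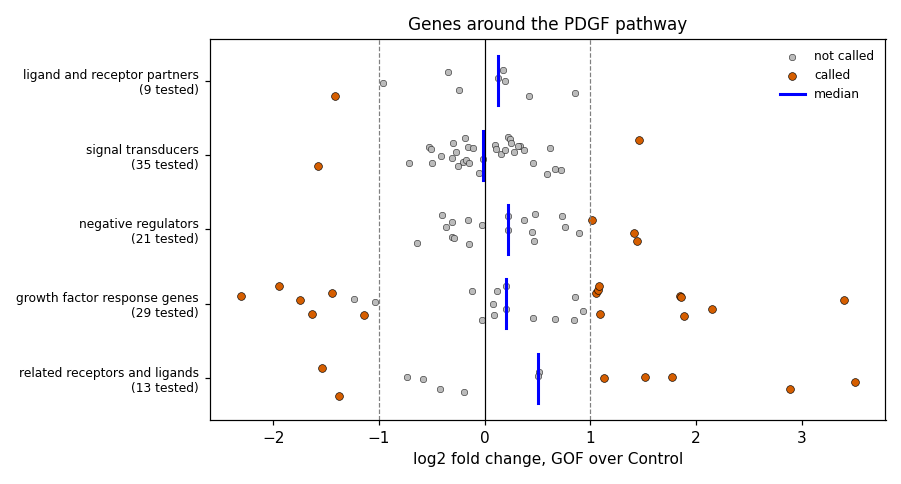
Log2 fold change, GOF over Control, of each tested gene in 5 lists around the PDGF pathway, from edgeR. Orange points are called genes, grey points are not called, blue bars are list medians and dashed lines mark a 2-fold change, with vertical spread only to separate points. Signal transducers gather around 0 with 2 called of 35, while response genes spread from -2.31 (Cxcl1) to 3.40 (Ptgs2).

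Around the 6 genes, protein-coding neighbours starting within 500 kb were read from the same fit, in which 12.3% of all genes were called. Near Pdgfa, 13 were tested and 2 called, A430033K04Rik at a log2 fold change of -1.08 and Gper1, which had 14, 22 and 32 fragments in the controls and 2, 3 and 1 in the GOF cultures. Near Pdgfc, Pdgfd and Pdgfra, 0 of 1, 0 of 1 and 0 of 2 were called by edgeR or by DESeq2, with 1 near Pdgfra lower at an unadjusted p under 0.05 (Lnx1, log2 fold change -0.94). Kit, the class III receptor gene on the same strand near Pdgfra, had at most 24 fragments and was not tested. Near Pdgfb, 1 of 20 was called (Mgat3, -1.25). Near Pdgfrb, 5 of 13 were called, of which Csf1r and Camk2a were higher at 1.52 and 1.45 and Slc6a7, Arsi and Ppargc1b lower at -2.03, -1.44 and -1.69. Slc6a7, with 5 to 34 fragments a library, was not called with the animal as a block. Ppargc1b likewise had few fragments, 4 to 29 a library. Csf1r starts 55 kb from Pdgfrb on the same strand. Gm16000, antisense to Pdgfc, and Ddi1, on the other strand within Pdgfd, had at most 18 and 33 fragments in a library.

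The genes whose levels followed each PDGF gene most closely were found by Pearson's r on log2(FPKM + 0.1) over the 6 libraries of 4 animals, among 11142 protein-coding genes with a mean of at least 1 FPKM. With 6 points and so many candidates such values are a description, and libraries of a group or animal are shared by all of them. For Pdgfa these were Klrg2, Cyb5d2 and Thsd7a (r = 0.998 each), of which Thsd7a lay at 0.964 to 1.52 FPKM in the controls and rose to between 4.96 and 14.4 FPKM in GOF cultures (log2 fold change 3.13, edgeR adjusted p = 0.00259). For Pdgfc they were Atp1b3, Slc25a24 and Grk5 (r = 0.998 to 0.999). For Pdgfd they were D930007J09Rik, Prkcd and Spata1 (r = 0.985 to 0.988), and for Pdgfb Rassf6, Sh3bp5l and Homer3 (r = 0.980 to 0.992). Pdgfra was followed by Porcn, which encodes the enzyme that acylates Wnt proteins, Maf and Armcx1 (r = 0.994 each). Porcn was at 2.68, 3.59 and 4.46 FPKM in the controls and at 2.70, 3.14 and 1.92 FPKM in the GOF cultures, with the libraries in the same order as for Pdgfra. Pdgfrb was followed by Il6ra, Dnmbp and Zc3h7b (r = 0.992 each).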

How the data were processed

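RNA-seq libraries (Illumina stranded kit, paired-end) of 6 fibroblast cultures had been aligned by the authors with TopHat (mm10), and Cuffdiff gave estimated fragments and FPKM for each gene and library (versions not given in the sources used here). The estimated counts are the raw fragments the authors deposited, with no scaling. FPKM was deposited by the authors as Cuffdiff scales it, for transcript length and between libraries. A further 2 columns of per-library values and a table of lncRNAs were not used. GENCODE M21 (GRCm38) held 97.9% of the gene identifiers, and 32 genes with a failed estimate were left out.

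Estimated counts, of which 4.95% were not whole, were rounded and fitted in R 4.3.3 with edgeR 4.0.16 (TMM, filterByExpr, quasi-likelihood test without a block, Benjamini-Hochberg adjustment over 15462 genes). FPKM of single genes and ratios were compared by exact permutation tests (scipy 1.17.1). The script was tested on simulated data. Alternatives were DESeq2 1.42.0, limma 3.58.1, other scalings and filters, blocks, and leaving out each library. The members and lists were chosen with earlier results of these data known. Named in each list were up to 3 called genes with the smallest adjusted p, for each PDGF gene the 3 best-correlated coding genes and the called neighbours within 500 kb. Further list genes were named after their values were seen. The values of 1 called list gene are not reported here.

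The replicate numbers in the labels did not pair the cultures (correlation of deviations from the group means -0.41, 0.0539 and -0.441 for equal numbers). Cultures of the same animal did deviate together (0.408 and 0.46), so the animal was used as the block. Replicates of a group differed by more than counting noise.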

Additional observations from a re-analysis of the deposited data

How the results depend on the processing

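Pdgfa and Pdgfc kept their direction and an adjusted p under 0.05 under every alternative run, with adjusted p between 5.67e-07 and 0.0272 and between 3.24e-10 and 0.0179. Their log2 fold changes ran from 1.13 to 1.56 and from 1.02 to 1.21 with each library left out, and 2 members were called each time. With limma on log2(FPKM + 1), 1 member was called, since Pdgfc did not exceed the fold threshold, and 4 related receptors and ligands. That scale called 877 of all genes against 1906, and 1271 were called with a minimum of 1 FPKM in 3 libraries.

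Pdgfd passed the adjusted p threshold with DESeq2 (-0.34, 0.0322), library totals (-0.40, 0.0315), upper-quartile normalization (-0.40, 0.035) and limma-voom with a random replicate block by animal (-0.32, 0.0257), and ran from -0.40 to -0.30 with libraries left out. Library totals and upper-quartile normalization also moved the median of all genes from -0.02 to -0.06 and -0.07, and called 2 of the ligand and receptor partners. Pdgfra passed with the replicate block by animal (-1.18) and with the random block (-0.98), and ran from -1.22 to -0.45 with libraries left out. Pdgfrb ran from -0.97 to -0.53. The cause of these differences was not tested.

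With libraries left out, the calls ran from 1 to 2 among partners, 2 to 2 among signal transducers, 2 to 4 among negative regulators, 11 to 15 among response genes and 4 to 7 among related receptors and ligands. The calls over all genes also varied, from 1311 of 15799 tested without GOF 0 to 1961 of 15952 without Control 0. The difference in log2 ratio ran from -0.73 to 0.25 for Pdgfra over Pdgfrb and from 0.19 to 0.52 for Pdgfa over Pdgfc, and within animal 9852 it was -1.13 and 0.66. A block by label number gave 1.35 for Pdgfa, 1.10 for Pdgfc, -0.35 for Pdgfd, -0.83 for Pdgfra and -0.66 for Pdgfrb, with the same members called. Over all results and alternatives, 214 values stayed on their side of the adjusted p threshold, within the spread between replicates or, for counts of calls, within a set fold. A further 7 newly passed the adjusted p threshold and 9 moved further. The 214 include results whose calls changed. Members called went from 2 to 3 with the animal as a block, and Pdgfc lost its call on log2(FPKM + 1). No called value changed sign, but the uncalled difference of Pdgfra over Pdgfrb did without GOF 2. Depth limits Pdgfb, which had at most 18 fragments in a library.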
